A study of Homo sapiens with 8 samples.

Results

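The transcripts described here are MYC and the factors that make ribosomes, from the early nucleolar proteins to subunits of RNA polymerases I and III, in NCI-H1975 cells. The list of 45 gene symbols is a list of names with no threshold on measured values, and it was drawn up with earlier results of these data known. Of these, 40 genes had a probe set annotated to their symbol alone and were measured, out of 19775 genes tested in all. NOP56, DKC1, GNL3, BOP1 and PPAN had none and were not analysed here. Where a gene had several probe sets, the brightest by mean was read, and all 40 measured genes had a mean log2 intensity of at least 5 (the lowest 6.34).

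NCI-H1975 is a human cell line from a lung adenocarcinoma and grows on mutant EGFR. The cells received osimertinib (10 nM, a covalent inhibitor of mutant EGFR) with alpelisib (1 µM, an inhibitor of the alpha catalytic subunit of PI3K), osimertinib alone, alpelisib alone or the DMSO vehicle. Each of these 4 treatments was given with 2 mM L-histidinol, an analog of histidine known to block the charging of its tRNA, and without it, and RNA was taken after 24 hours. The 8 conditions had 1 array each, of the Affymetrix U133 Plus 2.0 type. All cells grew in RPMI1640 medium with fetal bovine serum and kanamycin.

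Ribosome production starts in the nucleolus, where polymerase I transcribes the long precursor of the ribosomal RNAs, while polymerase III makes the 5S RNA, the tRNAs and other short RNAs. The precursor is modified by small nucleolar ribonucleoproteins of the box C/D and box H/ACA classes, and then folded, cut and packed by separate sets of assembly factors for the small and the large subunit. MYC is a transcription factor that pairs with MAX on the E-box CACGTG and is known to drive many of these genes. Signalling through EGFR and PI3K reaches MYC and ribosome production by several routes, among them ERK and mTORC1.

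Median intensity lay between 21.8 and 22.4 on the 8 arrays, and pairs of arrays correlated at r = 0.974 to 0.996 across genes. The ratio of the 3′ to the 5′ ACTB control was 1.10 to 1.15 on the arrays with L-histidinol and 1.04 to 1.07 on those without. Its part in the L-histidinol results was not tested. All 11 epithelial and lung markers were measured, and EPCAM averaged 12.2, KRT7 13.1 and NKX2-1 8.53 on the log2 scale, while the surfactant genes SFTPB (6.14) and SFTPC (6.36) were dim. These markers moved with treatment: 6 rose and 1 fell with the combination, where 21.4% of all genes rose and 19.2% fell. Among the risers were NKX2-1 (1.90 ± 0.12), KRT8 (0.69 ± 0.05), CDH1 (0.68 ± 0.06) and NAPSA (0.65 ± 0.11). EGFR was the one that fell (-0.54). With L-histidinol 1 rose, EGFR (0.38 ± 0.05), and 4 fell, where 11.4% of all genes rose and 9.17% fell. Among those that fell were NKX2-1 (-0.62 ± 0.08), KRT18 (-0.53 ± 0.05) and KRT19 (-0.38 ± 0.04, a call lost over the mean of its probe sets). Their summed linear intensity was 30342 and 34554 with the combination, 27527 and 32341 with osimertinib, 28559 and 31560 with alpelisib, and 25200 and 27196 with vehicle, the first of each pair with L-histidinol. Of the 12 markers of other cell types, 11 were measured, and PTPRC (2.82), COL3A1 (2.83) and LUM (2.17) were near the bottom of the scale. Others were brighter, among them COL1A1 (9.14), HBB (5.79), PECAM1 (5.18) and CD3E (4.73), so these markers were not all absent. The summed linear intensity of those 11 was 997 and 1326 with the combination, 891 and 1214 with osimertinib, 600 and 648 with alpelisib, and 489 and 577 with vehicle. COL1A1 carried most of it and rose with the combination by 1.53 ± 0.09 log2 units, and LUM (1.23 ± 0.16) and CDH5 (0.78 ± 0.15), both near the bottom of the scale, were the other 2 called higher. The part of these markers in the results below was not tested.

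Differences are given as fitted log2 differences ± standard error, where 1 unit is a 2-fold change. A gene was called at an adjusted p below 0.05 in limma's fit across all genes. That fit added an L-histidinol effect (4 array pairs) and a drug effect (2 arrays against 2). Its p-values set each effect against a spread. That spread was only how far 8 single arrays depart from additivity, moderated by a prior shared across genes. It is not a spread between replicates. The labels do not say whether the cultures were separate. The drug comparisons against vehicle share the same vehicle arrays. On bulk RNA, fewer cells that express a gene and less RNA per cell cannot be told apart.

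The promoters of these genes are shown for the letters of the MYC and MAX site. In RefSeq windows of 300 bases (GRCh38.p14, 250 bases before to 50 after a gene's start), 32 of the 40 measured genes had a window. MYC, POLR3G, POLR3D, POLR1E, NOP58, NOLC1, RRP12 and RRS1 had none, so their promoters were not searched. CACGTG, which reads the same on both strands, stood in the windows of 16 of these 32 genes (50%), against 10.9% of 15384 tested genes with a window. Windows held it in 12 of 35 other small subunit factors (34.3%), 11 of 39 other large subunit factors (28.2%) and 3 of 47 ribosomal protein genes (6.38%). The 16 genes had 17 sites, 11 after the start and 6 before it, and 15 lay within 50 bases of the start. The window ends 50 bases after the start, so sites there could not lie further off. The distances over all genes were not counted. A match is a run of letters and says nothing of binding in these cells. Of UTP4, whose protein joins the small subunit processome, the 80 bases at chr16:69132569-69132648 (plus strand) are printed first, and of UTP20, a scaffold of the same processome, the 80 bases at chr12:101280025-101280104 (plus strand). These 2 stretches show a site in its context just upstream of the start, the less common side here, with the E-box in capitals.
UTP4: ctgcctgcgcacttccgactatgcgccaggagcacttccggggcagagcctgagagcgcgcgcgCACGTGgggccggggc
UTP20: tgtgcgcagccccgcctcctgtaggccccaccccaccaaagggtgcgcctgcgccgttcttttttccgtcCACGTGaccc

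Sites of 30 bases follow for 6 further genes that the results below turn on, again with the E-box in capitals and on the gene's own strand. They lie at chr4:4290068-4290097 (minus) for LYAR, chr3:51941892-51941921 (minus) for RRP9, chr1:19251807-19251836 (plus) for MRTO4, chr10:68956604-68956633 (plus) for DDX21, chr19:39846356-39846385 (minus) for FBL and chr2:130342900-130342929 (plus) for IMP4.
LYAR: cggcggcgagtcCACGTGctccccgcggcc
RRP9: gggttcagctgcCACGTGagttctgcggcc
MRTO4: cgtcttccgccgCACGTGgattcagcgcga
DDX21: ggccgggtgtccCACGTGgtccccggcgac
FBL: tgcgctcttttcCACGTGcgaaagccccgg
IMP4: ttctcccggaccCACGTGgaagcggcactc
The flanks of these sites differed from gene to gene, while the 6 capitals are shared by the choice of motif. A second IMP4 site, at -203 from the start, is not printed. POLR3K and POLR1B had windows without CACGTG. Of the genes with the site, the median difference of the combination from vehicle was -1.11 (n = 16 genes), against -1.02 for the genes with a window and no site (n = 16), and all 32 were called lower.

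MYC itself, the transcription factor of the list, was lower with osimertinib, alone or in the combination, and was not measurably changed by alpelisib. Its log2 intensity with L-histidinol was 10.90 with the combination, 10.82 with osimertinib, 11.39 with alpelisib and 11.42 with vehicle. Without L-histidinol it was 10.16 with the combination, 10.19 with osimertinib, 10.90 with alpelisib and 10.89 with vehicle. In each L-histidinol state, both arrays with osimertinib lay below both arrays without it, and the alpelisib array lay within 0.03 of the vehicle array.

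Against vehicle MYC fell by 0.62 ± 0.07 with the combination (adjusted p = 1.49e-05, 1.54-fold lower) and by 0.64 ± 0.07 with osimertinib (adjusted p = 3.46e-05). The alpelisib difference was -0.01 ± 0.07 (adjusted p = 0.975, 95% interval -0.15 to 0.14). Adding alpelisib to osimertinib gave 0.02 ± 0.07 (adjusted p = 0.884, 95% interval -0.12 to 0.17). Osimertinib against alpelisib was a fall of MYC (-0.64 ± 0.07, adjusted p = 0.000181). All MYC values come from 1 probe set, the only one annotated to it alone.

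**Figure D1:**
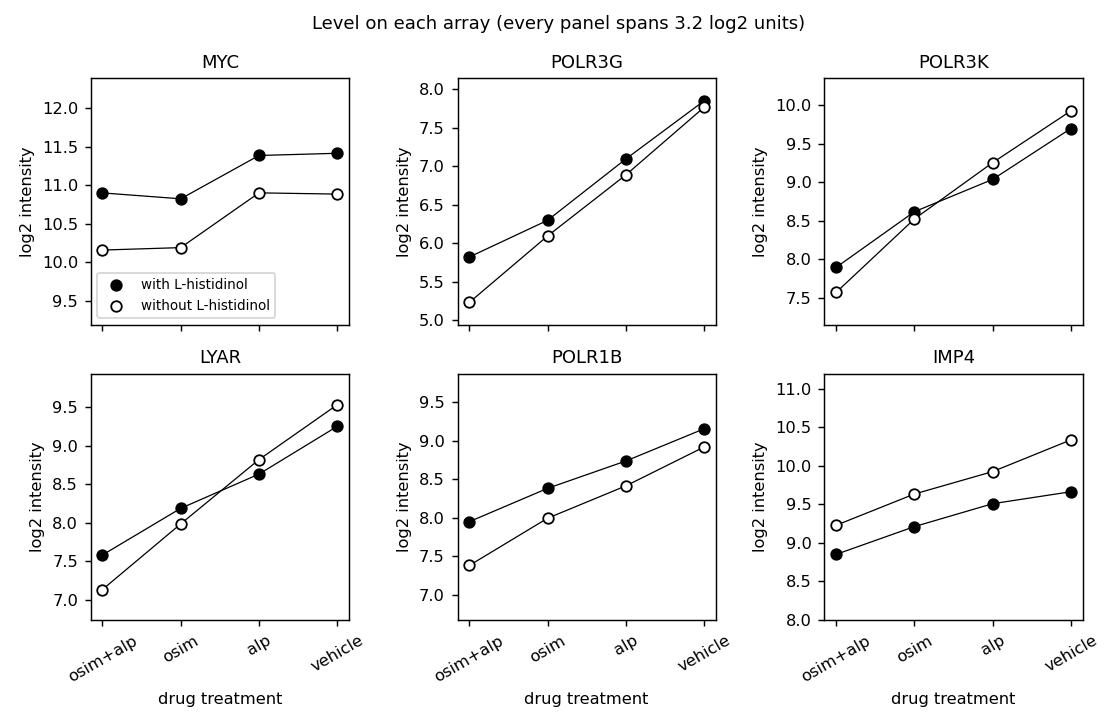
Log2 intensity (vertical axis) of MYC, POLR3G, POLR3K, LYAR, POLR1B and IMP4 on each array, by drug treatment (horizontal axis, combination at left, vehicle at right), with filled points for arrays with L-histidinol and open points for arrays without. MYC sits at 2 drug levels, set by osimertinib, while POLR3G, POLR3K, LYAR and POLR1B step down from vehicle through alpelisib and osimertinib to the combination, and IMP4 lies lower with L-histidinol in every treatment.

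The other 39 genes were all called lower with the combination and with osimertinib, and 28 of them also with alpelisib, which left MYC uncalled. With the combination 40 of 40 measured genes, MYC included, were called lower, where 19.2% of all genes tested were, and 0 higher, where 21.4% were, and their median difference from vehicle was -1.05 (range -2.28 to -0.30), against 0.00 over all genes. Osimertinib alone lowered 40 of 40 (14% of all genes lower), with a median of -0.70, against 0.01 over all genes. Alpelisib alone lowered 28 of 40 (4.38% of all genes lower), with a median of -0.39. At least 2-fold falls were fitted for 24 genes with the combination, 6 with osimertinib and 0 with alpelisib. The share of all genes with such falls was not counted, so these counts do not show how unusual the list was.

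The alpelisib count rests on few arrays. Without the vehicle array that had no L-histidinol it was 6, without the alpelisib array that had no L-histidinol it was 7, and without the array with L-histidinol and alpelisib it was 0, while the median stayed between -0.52 and -0.26 over all arrays left out in turn. The osimertinib count stayed between 38 and 40 and the combination count between 39 and 40.

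The order vehicle, alpelisib, osimertinib, combination, from high to low, held in single arrays for 36 of 40 genes with L-histidinol (14.5% of all genes) and for 39 of 40 without (17.1%), and in both states for 36 (9.8%). Adding alpelisib to osimertinib lowered 27 of 40 genes (7.41% of all genes lower), with a median of -0.37. That count was 8 without the osimertinib array that had no L-histidinol, 6 without the combination array that had none, and 2 without the array with L-histidinol and osimertinib. Adding osimertinib to alpelisib lowered 39 of 40 (14.4% of all genes lower), all but POLR3D, with a median of -0.68. Osimertinib against alpelisib lowered 20 of 40 (5.51% of all genes lower). Leaving out either osimertinib array gave 2 (without L-histidinol) or 3 (with it), and leaving out either alpelisib array gave 1 (without) or 7 (with).

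No gene of the list was called for a term of osimertinib by alpelisib, the gap between the combination and both drugs added up, in limma's fit, where 0.0303% of all genes were. The median of that term was 0.03, 1 gene of the list had an unadjusted p below 0.05 (8.84% of all genes did), and the fit with all 2-way terms and its own prior called 2 of the list lower.

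**Figure D2:**
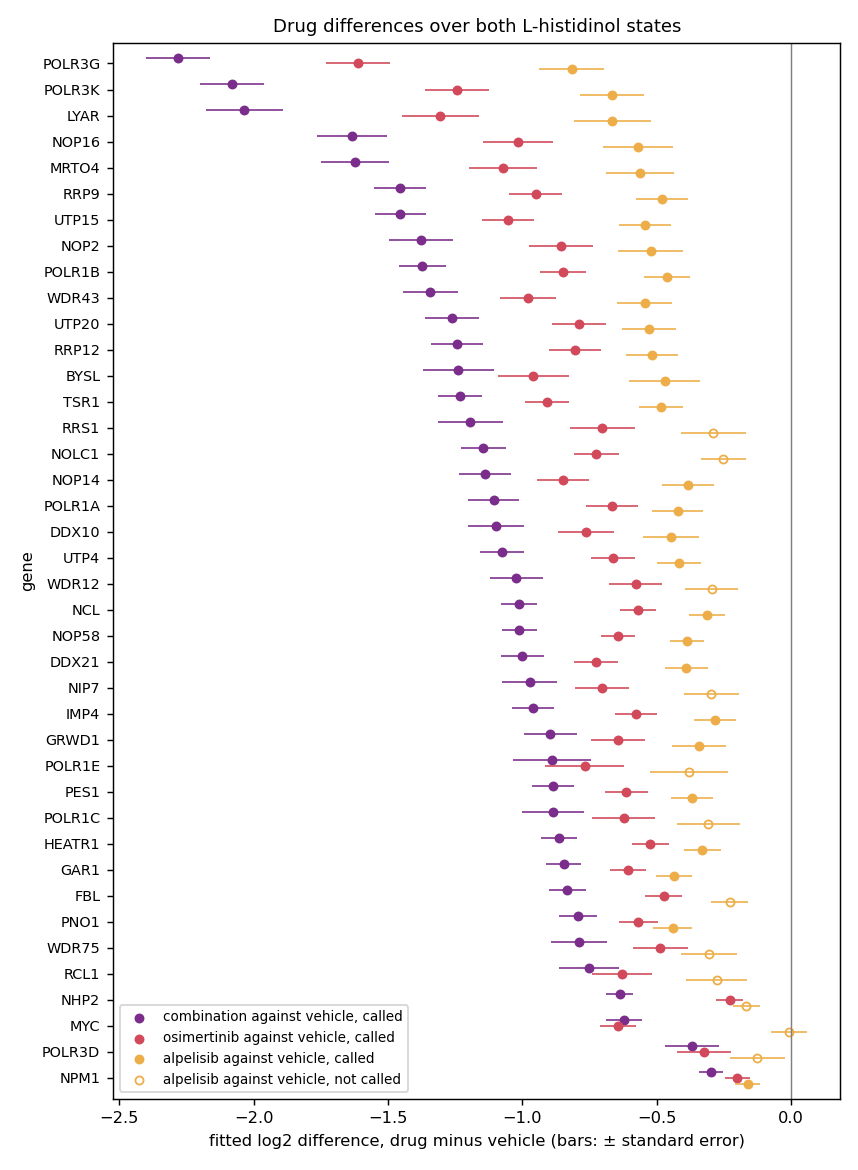
Fitted log2 difference from vehicle (horizontal axis, points with bars of 1 standard error) for each of the 40 genes. Rows are ordered by the combination difference, with the largest fall at the top. The combination, osimertinib and alpelisib are in separate colours, with open circles for differences that were not called. All 40 genes lie below 0 with the combination (-2.28 to -0.30) and with osimertinib, and every open circle is an alpelisib value.

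Polymerase III subunits included the steepest fall of the list and one of the smallest. POLR3G encodes one of 2 alternative forms of a polymerase III subunit, and is known as the form of stem and tumour cells. Its log2 intensity with L-histidinol was 5.82 with the combination, 6.30 with osimertinib, 7.09 with alpelisib and 7.85 with vehicle, and without L-histidinol 5.23, 6.09, 6.88 and 7.76 in the same order of treatments. Both combination arrays lay below every other array, and the 4 treatments did not overlap.

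POLR3G fell by 2.28 ± 0.12 with the combination (adjusted p = 1.14e-07, 4.86-fold lower), by 1.61 ± 0.12 with osimertinib and by 0.82 ± 0.12 with alpelisib (adjusted p = 0.00211). POLR3K, a small subunit of the same enzyme that takes part in RNA cleavage and termination, stood at 7.89, 8.62, 9.04 and 9.70 on the arrays with L-histidinol and combination, osimertinib, alpelisib and vehicle. On the arrays without L-histidinol it stood at 7.57, 8.52, 9.25 and 9.92 in that order. Its treatments did not overlap either, and it fell by 2.08 ± 0.12 with the combination (adjusted p = 1.85e-07, 4.23-fold lower). A second, dim POLR3K probe set (mean log2 3.08) gave a fall of 0.65 with the combination (adjusted p = 0.0113). Its difference was -0.42 with alpelisib (adjusted p = 0.182).

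POLR3D, a subunit of the initiation and termination arm, fell by only 0.37 ± 0.10 with the combination (adjusted p = 0.0112) and was not called with alpelisib (-0.13 ± 0.10). Its combination call was lost without the vehicle array (-0.31, adjusted p = 0.0799) or the combination array (-0.25, adjusted p = 0.145) that had no L-histidinol.

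POLR3GL, the alternative form that takes the place of POLR3G, is outside the list and went the other way. It rose by 0.37 ± 0.08 with the combination (adjusted p = 0.00179) and by 0.53 ± 0.08 with osimertinib, and the alpelisib difference was 0.20 ± 0.08 (adjusted p = 0.119). On the arrays with L-histidinol POLR3GL stood at 8.15, 8.34, 7.95 and 7.81 with the combination, osimertinib, alpelisib and vehicle, and on those without at 8.07, 8.19, 7.93 and 7.66. Both osimertinib-containing treatments lay above alpelisib and vehicle in either state. Of the 23 other genes of the polymerase III apparatus measured, 12 fell and 2 rose with the combination, with a median of -0.27. POLR3E, a subunit, fell by 0.79 ± 0.07, while MAF1, the repressor of polymerase III, rose by 0.52 ± 0.12 (adjusted p = 0.00325) and BRF1, a subunit of its initiation factor, was at 0.00 ± 0.09 (adjusted p = 0.99).

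All 4 polymerase I genes of the list fell with the combination. POLR1B, the second largest subunit of the enzyme, stood at 7.95, 8.38, 8.74 and 9.16 on the arrays with L-histidinol and combination, osimertinib, alpelisib and vehicle, and at 7.38, 7.99, 8.41 and 8.92 on those without. Each value with L-histidinol was above its partner without. POLR1B fell by 1.37 ± 0.09 with the combination (adjusted p = 3.41e-07), and POLR1A, the largest subunit, by 1.11 ± 0.10. POLR1C, shared with polymerase III, and POLR1E, a polymerase I subunit of the initiation and elongation machinery, both fell by 0.89, with standard errors of 0.12 and 0.15. With alpelisib, POLR1B and POLR1A fell by 0.46 ± 0.09 and 0.42 ± 0.10, and POLR1C (-0.31 ± 0.12) and POLR1E (-0.38 ± 0.15) were not called.

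Among 13 other polymerase I genes, 8 fell and 0 rose with the combination, with a median of -0.41. TCOF1, the treacle protein that supports ribosomal DNA transcription, fell by 1.82 ± 0.14, POLR1G, a further subunit, by 1.55 ± 0.09, and TAF1A, of the promoter selectivity factor, by 1.49 ± 0.09. RRN3, which carries the enzyme to the promoter, fell by 0.41 ± 0.08, and UBTF, which binds the ribosomal DNA, was at 0.12 ± 0.09 (adjusted p = 0.376). The 7 measured core subunits of polymerase II had a median of -0.31 with the combination, and 4 of them fell, POLR2D most (-1.15 ± 0.11). All 5 subunits shared by the 3 polymerases fell (median -0.40).

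Of the 5 nucleolar proteins, LYAR, a regulator of ribosomal DNA transcription and rRNA processing, fell furthest. It stood at 7.58, 8.19, 8.63 and 9.25 on the arrays with L-histidinol and combination, osimertinib, alpelisib and vehicle, and at 7.13, 7.98, 8.82 and 9.53 on those without. The treatments did not overlap, and the distance from vehicle to combination was shorter with L-histidinol (-1.67) than without (-2.40).

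LYAR fell by 2.03 ± 0.14 with the combination (adjusted p = 6.96e-07, 4.1-fold lower), and a second probe set of it gave -1.76 ± 0.13. NOLC1, a chaperone of nucleolar ribonucleoproteins, fell by 1.15 ± 0.08, NCL (nucleolin) by 1.01 ± 0.07 and DDX21, a helicase of rRNA processing, by 1.00 ± 0.08. The NCL call does not extend to its second probe set (-0.13, adjusted p = 0.582), which had a mean log2 of only 3.30. NPM1, the abundant nucleolar chaperone nucleophosmin, had the smallest fall of the list, 0.30 ± 0.05 (adjusted p = 0.000245). NPM1 was still lower in each combination array (12.63 with L-histidinol, 12.44 without) than in the vehicle array of the same state (12.90 and 12.77).

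All 4 measured snoRNP proteins fell with the combination. NOP58 and FBL, the core and the methyltransferase of box C/D particles, fell by 1.01 ± 0.06 and 0.83 ± 0.07 with the combination. GAR1 and NHP2, core proteins of the box H/ACA pseudouridylation particles, fell by 0.85 ± 0.07 and 0.64 ± 0.05. NHP2 fell by only 0.23 ± 0.05 with osimertinib alone.

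All 15 small subunit factors fell with the combination (median -1.14, range -1.46 to -0.75) and with osimertinib (median -0.79), and 13 of 15 with alpelisib (median -0.45). RRP9, of the U3 particle that guides early cleavage, fell by 1.46 ± 0.10, UTP15, a processome subunit linked to polymerase I transcription, by 1.45 ± 0.10, and RCL1, an endonuclease-like processome protein, by 0.75. A dim RCL1 probe set (mean log2 2.39) read 0.063 (adjusted p = 0.779). RCL1 and WDR75 were the 2 not called with alpelisib. RRP12, an export factor of pre-ribosomes (-1.24 with the combination), has a dimmer probe set (mean log2 4.56) that read 0.29 with the combination (adjusted p = 0.0889) and was called higher with osimertinib (0.41, adjusted p = 0.0262), against the fall of the probe set used. TSR1, a late small subunit factor, fell by 1.23 ± 0.08 on the probe set used, and its dimmest one (mean log2 5.59) gave -0.10 (adjusted p = 0.577).

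All 8 large subunit factors fell with the combination (median -1.11, range -1.63 to -0.89). NOP16, a nucleolar protein of large subunit assembly, fell by 1.63 ± 0.13. MRTO4, which holds the place of the stalk protein on the pre-ribosome, fell by 1.62 ± 0.13 and NOP2, an rRNA methyltransferase, fell by 1.38 ± 0.12. RRS1, which helps bring 5S RNA into the large subunit, fell by 1.19 ± 0.12 with the combination and was not called with alpelisib (-0.29 ± 0.12). PES1 and WDR12, partners in the complex that matures the large subunit rRNA, fell by 0.89 and 1.02.

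**Figure D3:**
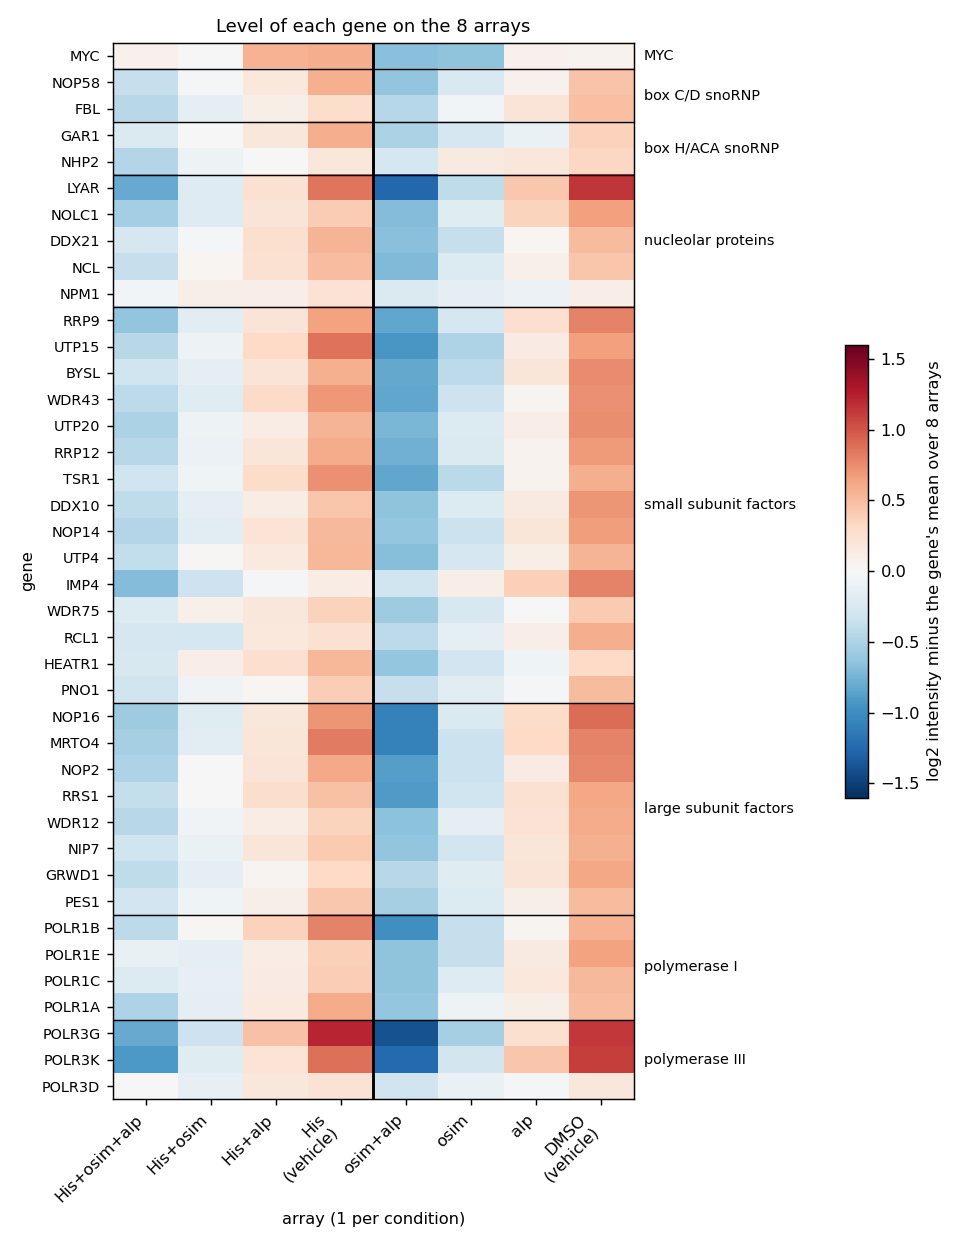
Log2 intensity of each of the 40 genes (rows, grouped by role) on each of the 8 arrays (columns, the 4 with L-histidinol at left, each block running from the combination to vehicle) minus that gene's mean over the arrays, in colour. The 2 combination columns are low and the 2 vehicle columns high in nearly every row, NPM1 varies little, and MYC differs in having alpelisib columns as high as vehicle.

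Assembly factors outside the list fell too, and most ribosomal proteins measured did not. Of 40 other small subunit factors, 38 fell and 0 rose with the combination (median -0.78), 38 fell with osimertinib (median -0.53) and 21 with alpelisib (median -0.31). EMG1, an rRNA methyltransferase, fell by 1.35 ± 0.09 with the combination. Of 44 other large subunit factors, 40 fell and 0 rose with the combination (median -0.81), 40 fell with osimertinib and 19 with alpelisib, with RRP15 (-1.48 ± 0.10), NOC3L (-1.45 ± 0.11) and BRIX1 (-1.44 ± 0.10) at the low end. Of 79 ribosomal proteins listed, 53 were measured. Of these, 2 fell and 1 rose with the combination, with a median of -0.01 and a range of -0.16 to 0.27. The 2 that fell, RPL27 and RPL24, were bright (mean log2 12.9 and 13.1). Any part of brightness in these small differences was not tested. RPS9, a small subunit protein, was the one that rose (0.27 ± 0.04), and read 0.06 (adjusted p = 0.804) where probe sets marked as shared were left out. With osimertinib 0 fell, with alpelisib 0 fell, and the medians were 0.00 and -0.01.

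**Figure D4:**
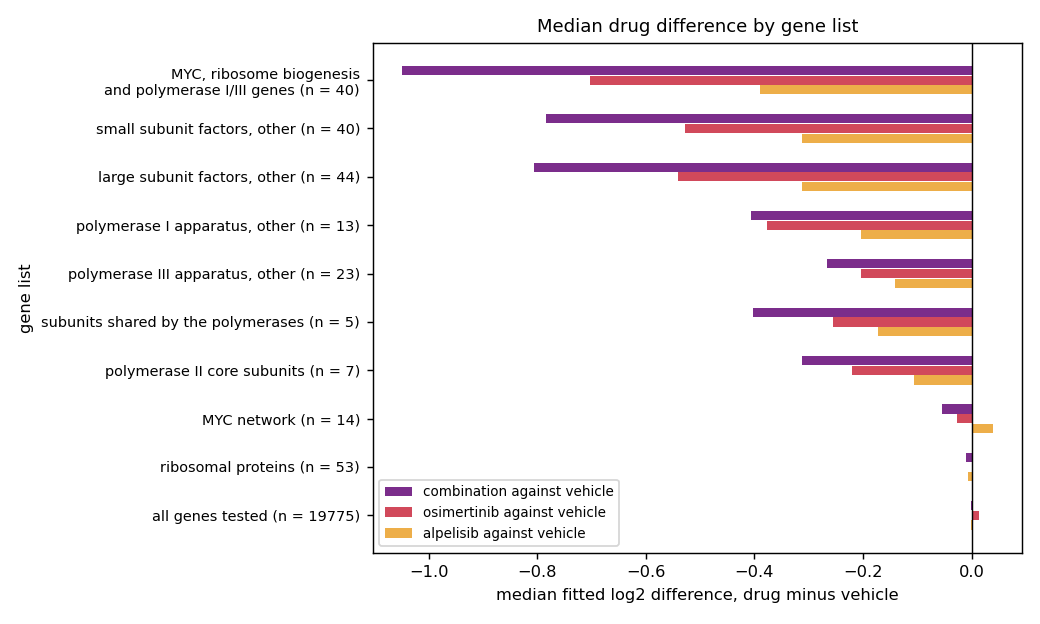
Median fitted log2 difference from vehicle (bars, horizontal axis) of each gene list (rows) with the combination, osimertinib and alpelisib (colours). The 40 genes and the other assembly factors of both subunits lie well below 0 and are ordered combination, osimertinib, alpelisib from low to high, while ribosomal proteins lie near 0 with all 3 treatments.

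The partners and antagonists of MYC did not move as one. Of 14 genes of the MYC network measured, 4 rose and 3 fell with the combination (median -0.06), shares close to the 21.4% higher and 19.2% lower among all genes. MXI1, which competes with MYC for MAX and represses, rose by 1.34 ± 0.10 with the combination (adjusted p = 8.31e-07), by 0.61 ± 0.10 with osimertinib and by 0.47 ± 0.10 with alpelisib. MXI1 stood at 9.90, 9.37, 9.22 and 8.76 on the arrays with L-histidinol and combination, osimertinib, alpelisib and vehicle, and at 9.40, 8.48, 8.34 and 7.85 on those without. Its order of treatments was thus the reverse of that of most ribosome factors.

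MNT, another MAX partner that represses, rose by 0.93 ± 0.09 with the combination, 0.60 ± 0.09 with osimertinib and 0.43 ± 0.09 with alpelisib. Averaged over all its probe sets, MNT kept the signs but lost the osimertinib (0.19, adjusted p = 0.158) and alpelisib (0.23, adjusted p = 0.177) calls. MXD1, a related repressor, fell by 0.55 ± 0.12 with the combination, a call lost over the mean of its probe sets (-0.21, adjusted p = 0.246). MAX was at -0.05 ± 0.06 with the combination (adjusted p = 0.613), and MGA, a large MAX partner, at -0.08 ± 0.08 (adjusted p = 0.484).

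L-histidinol raised MYC in all 4 drug backgrounds, and the fitted difference of MYC was the largest of the list. In the vehicle pair alone IMP4 moved further (-0.67). L-histidinol raised 11 of the 40 genes (11.4% of all genes higher) and lowered 2 (9.17% of all genes lower). The median was 0.12, against -0.01 over all genes. That median was 0.03 with either combination array left out (11 genes called), 0.18 with either vehicle array left out and 0.10 to 0.13 with one of the others left out. MYC rose by 0.60 ± 0.05 (adjusted p = 2.33e-05, 1.51-fold). The array pairs gave MYC differences of 0.74 with the combination, 0.63 with osimertinib, 0.49 with alpelisib and 0.53 with vehicle. MYC with L-histidinol and osimertinib (10.82) and with L-histidinol and the combination (10.90) stood near MYC with vehicle alone (10.89).

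After MYC, POLR1B rose most (0.38 ± 0.06, adjusted p = 0.00144), and HEATR1 (0.33 ± 0.05), a processome scaffold needed for ribosomal DNA transcription, UTP15 (0.32 ± 0.07) and TSR1 (0.31 ± 0.06) followed. The others called higher were POLR3G (0.27 ± 0.08, adjusted p = 0.0426), GAR1 (0.26), DDX21 (0.25), NCL (0.20), NPM1 (0.19) and NOP58 (0.17). None of the 8 large subunit factors was called in limma's fit (median 0.08).

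Without the osimertinib array that had no L-histidinol the count of called genes was 8, and likewise 8 without the array with both. In the first case POLR3G (0.29, adjusted p = 0.107), NOP58 (0.16, adjusted p = 0.121), NCL (0.18, adjusted p = 0.0775), DDX21 (0.22, adjusted p = 0.0676) and UTP15 (0.30, adjusted p = 0.0508) missed the threshold. The POLR3G call was lost in 6 of the 8 fits with an array left out, and its value was 0.16 with either combination array left out (adjusted p = 0.156 and 0.162). NOP58 lost its call in 6 of 8 too (0.15 to 0.20).

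IMP4, which belongs to the U3 particle of the small subunit processome, fell with L-histidinol in every drug background. It stood at 8.85, 9.21, 9.51 and 9.66 on the arrays with L-histidinol and combination, osimertinib, alpelisib and vehicle, and at 9.23, 9.63, 9.92 and 10.33 on those without. Each array with L-histidinol lay below its partner, and the fitted fall was 0.47 ± 0.06 (adjusted p = 0.000233). NHP2 was the other gene called lower (-0.19 ± 0.04, adjusted p = 0.00349). IMP4 and NHP2 were also the only 2 of the 40 that were lower with L-histidinol in all 4 array pairs. The share of all genes lower in all 4 was not counted. Higher in all 4 were 11 of the 40 (19.6% of all genes were).

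Outside the list, L-histidinol raised 14 of 53 ribosomal proteins and lowered 0 (median 0.07), with RPL3 highest (0.31 ± 0.04). It raised 11 and lowered 4 of the 40 other small subunit factors, and raised 15 and lowered 3 of the 44 other large subunit factors. Of all genes, 11.4% were raised and 9.17% lowered. Among the other large subunit factors RSL24D1, an assembly factor that resembles a ribosomal protein, rose by 0.67 ± 0.05. MXI1 rose with L-histidinol as well (0.80 ± 0.07, adjusted p = 4.1e-05), and MAX rose by 0.16 ± 0.04 on the probe set used and read -0.46 (adjusted p = 0.00937) where probe sets marked as shared were left out.

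In single arrays the L-histidinol response of the list differed between drug backgrounds. Its median was 0.32 with the combination (38 genes higher and 2 lower), 0.17 with osimertinib (33 higher and 7 lower), 0.04 with alpelisib (26 higher and 14 lower) and -0.12 with vehicle (14 higher and 26 lower). The medians over all genes were 0.01, 0.00, -0.01 and 0.00. Assembly factors outside the list had the same order of medians. These were 0.21, 0.13, 0.02 and -0.04 for other small subunit factors, and 0.29, 0.19, 0.08 and 0.02 for other large subunit factors. In 24 of the 40 genes L-histidinol went with a lower value in vehicle and a higher one with the combination (21.4% of all genes), and the response was highest with the combination in 32 genes (30.3% of all genes). These are differences of single arrays, and all 40 genes of a pair share the same 2 arrays.

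**Figure D5:**
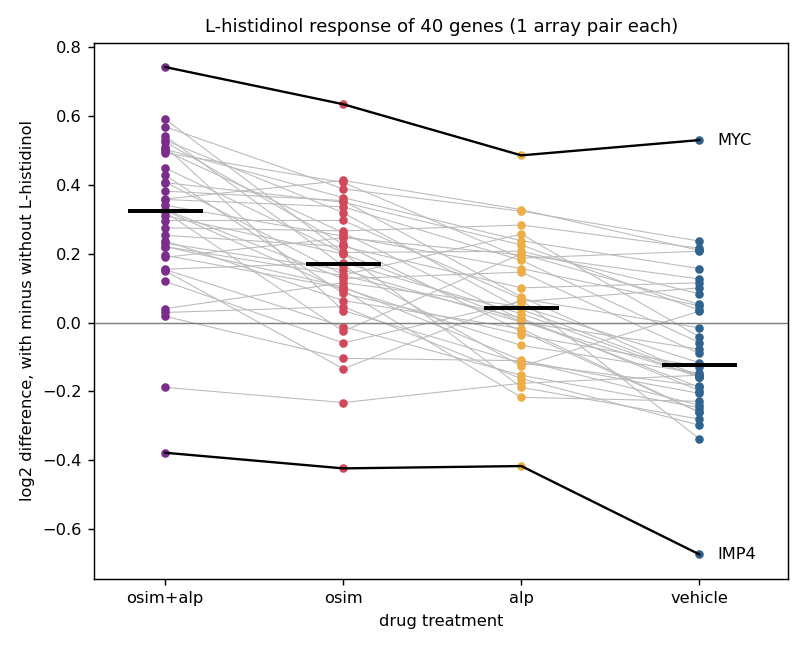
Log2 difference of the array with L-histidinol from the array without it (vertical axis) in each drug background (horizontal axis, combination at left, vehicle at right), with a point for each of the 40 genes, a short black bar for their median, grey lines that join each gene, and black lines for MYC and IMP4. Medians were 0.32, 0.17, 0.04 and -0.12 from the combination to vehicle, with MYC above 0 and IMP4 below 0 throughout.

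Seen from the drugs, the falls were shallower with L-histidinol. The median difference from vehicle was -0.86 with L-histidinol and -1.24 without for the combination, -0.59 and -0.86 for osimertinib, and -0.33 and -0.47 for alpelisib. The signed difference was higher with L-histidinol in 39 genes for the combination (53% of all genes), 37 for osimertinib (53.6%) and 34 for alpelisib (51.9%). The shares of all genes count rises that grew as well as falls that shrank, so they are not shares of shallower falls. All 40 genes were below vehicle with the combination and with osimertinib in both states, and 39 with alpelisib, MYC without L-histidinol (0.02) being the exception. The vehicle arrays enter every one of these differences.

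As a term of the fit with all 2-way products, L-histidinol by osimertinib was positive for 38 of 40 genes, and for 10500 of all 19775 genes. Its median was 0.25, against 0.01 over all genes, but no gene of the list was called in limma's fit, and 0% of all genes were. At an unadjusted p below 0.05 stood 20 of the 40, and 8.36% of all genes. With the prior of that fit itself in place of the prior of the additive fit, 16 of the 40 and 4.53% of all genes were called. L-histidinol by alpelisib was positive for 40 of 40 (median 0.12), and for 10461 of all 19775 genes (median 0.01). Of the 40, 4 had an unadjusted p below 0.05 (5.05% of all genes) and 0 were called with either prior. The signs were not particular to the list. Other small subunit factors were positive in 40 of 40 for osimertinib and 36 of 40 for alpelisib, and other large subunit factors in 42 of 44 and 34 of 44.

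LYAR had the largest L-histidinol by osimertinib term (0.56 ± 0.11, adjusted p = 0.186). Its L-histidinol differences were 0.45 with the combination, 0.20 with osimertinib, -0.19 with alpelisib and -0.28 with vehicle. POLR1E followed (0.52 ± 0.12, adjusted p = 0.277), at 7.60, 7.57, 7.83 and 8.09 on the arrays with L-histidinol and combination, osimertinib, alpelisib and vehicle, and at 7.07, 7.34, 7.86 and 8.36 on those without. RRS1 (0.48 ± 0.08, adjusted p = 0.169) stood at 10.81, 11.20, 11.47 and 11.66 on the arrays with L-histidinol and at 10.28, 10.88, 11.43 and 11.82 on those without. In both genes the arrays with L-histidinol were above their partners with the combination and with osimertinib, and below them with vehicle.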

How the data were processed

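RNA of 8 samples, 1 per condition, was measured per the labels, as biotinylated cRNA from total RNA. The authors deposited linear signal intensity per probe set, made with RMA and affy per the submitters' processing notes, of unstated version. The planned fit assumed log2 values, so log2 of each deposited intensity was taken first. After 62 controls were set aside, 41091 probe sets carried 1 symbol, 1801 several and 11721 none, and only the first kind was used. Entrez identifiers matched the RefSeq gene table for 41037, and 0 symbols changed. The brightest probe set stood for each of 19775 genes, and 9252 genes had 1 probe set.

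Limma 3.58.1 (R 4.3.3, statmod 1.5.0) fitted L-histidinol plus a 4-level drug term with variances following intensity (3 residual and 8.08 prior degrees of freedom). Terms of L-histidinol by drug were taken from a model of all 2-way products (1 residual degree of freedom) that kept this prior. Adjusted p-values follow Benjamini and Hochberg across the 19775 genes. The scripts were tested on simulated data. Counting error does not apply to arrays, and their number limits precision. Promoter letters were searched with Python 3.11.15 (numpy 2.4.6, pandas 2.3.3) and figures drawn with matplotlib 3.10.9.

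The genes and the 10 further lists (221 of 256 genes measured) were chosen with earlier results of these data known. All listed genes could be named, with up to 4 of the largest called differences of each further list and 11 genes fixed by name. MXD4, one of these, had no probe set of its own. Which of them are printed was decided with their values known. Alternatives were the normalization, an added offset of 16, the choice and filter of probe sets, the variance trend, the full 2-way fit and each array left out.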

Additional observations from a re-analysis of the deposited data

How the results depend on the processing

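The number of genes called lower stayed close to the reported one for the combination (39 to 40 over arrays left out, and 28 of the 32 with a probe set where those marked _x_at or _s_at were left out), for osimertinib (38 to 40) and for the combination against alpelisib (35 to 39). Over arrays left out, the L-histidinol count ran from 8 to 18 against 13, the alpelisib count from 0 to 37 against 28, combination against osimertinib from 2 to 32 against 27, and osimertinib against alpelisib from 1 to 30 against 20. Without a trend of variance with intensity these 4 counts were 7, 10, 7 and 5. The mean of all probe sets gave 17 for alpelisib against vehicle, 18 for combination against osimertinib and 10 for osimertinib against alpelisib, and osimertinib against alpelisib was 11 with probe sets marked _x_at or _s_at left out. The fit with all 2-way terms and its own prior called 22 for L-histidinol, 36 for osimertinib against alpelisib, 2 for osimertinib by alpelisib and 16 for L-histidinol by osimertinib, where the reported counts were 13, 20, 0 and 0. With arrays centred on their medians and with quantile normalization, the median of the listed genes was -1.07 and -0.98 for the combination, -0.72 and -0.67 for osimertinib, -0.40 and -0.37 for alpelisib, and 0.14 and 0.10 for L-histidinol.

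Of 285 calls of single genes, 1941 of 2280 repeats with an array left out kept the call, 339 missed the threshold and 0 changed sign, and of 2493 repeats under other settings 2303 kept it, 178 missed it and 12 changed sign. With probe sets marked _x_at or _s_at left out, RRP12 read 0.41 for osimertinib (adjusted p = 0.0262), 0.40 for alpelisib and 0.29 for the combination. RCL1 read 0.063 for the combination and 0.18 for combination against alpelisib. NCL read 0.036, 0.049 and 0.013 for combination against osimertinib, combination against alpelisib and osimertinib against alpelisib, TSR1 0.26 for combination against osimertinib, and MAX -0.46 for L-histidinol (-0.055 over the mean of its probe sets). KRT19 read -0.015 for alpelisib over the mean of its probe sets. These signs come from other, mostly dim, probe sets, and the cause was not tested. Of 28 further probe sets of the listed genes with a mean log2 of at least 5, 27 were called lower with the combination, and of 16 dimmer ones 5 were. The reported fit takes the drug treatment as the block for L-histidinol and the L-histidinol state as the block for the drugs, and the labels give no replicate numbers for a further block. Terms of L-histidinol by drug could not be fitted with an array left out. The single array per condition and the dim range of probe sets limit what can be read from these data.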
